A study of Homo sapiens with 6 samples.

Results

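Cholesterol synthesis genes were higher in PDBAG1-treated MDA-MB-231 cells along most of the pathway, and MYLIP and ABCA1, which limit sterol uptake and carry sterol out of the cell, were lower. The genes described here are 33 members of a list named by symbol from textbook roles in sterol synthesis, uptake, export and control by sterol regulatory element-binding proteins (SREBP), out of 17631 genes with a value in the deposited libraries. All 33 were present and expressed well enough to be tested: 20 synthesis enzymes, 7 SREBP regulators and 6 genes of sterol transport, uptake and storage. The list was chosen with earlier results of these data known, so its counts are a description. It does not hold every gene of the pathway.

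The 6 libraries came from MDA-MB-231, a human cell line of triple-negative breast cancer that grows in a mesenchymal form, with 3 from cells given vehicle and 3 from cells given 30 µM PDBAG1 for 24 h. PDBAG1 is a synthetic peptide taken from the GPD1 protein and joined to a cell-penetrating sequence, studied as a ligand of the mitochondrial protein C1QBP, and both groups grew in the same serum-containing medium with no genetic change named in the labels. The labels name a tissue as well as the cell line, whereas the culture and treatment notes describe the cell line, and nothing says whether the libraries of a group came from separate cultures, so p-values measure the spread between these libraries, which may be technical. Expression is in TPM (transcripts scaled to the same total in every library), a length-corrected share that keeps no sequencing depth, so the depth is unknown. A TPM of 1 was reached by 12392 to 12611 genes, depending on the library. Of the markers expected to be present, VIM rose from 4270 ± 87.5 to 5877 ± 103 TPM and CD44 from 321 ± 9.24 to 484 ± 19.0 TPM. KRT18, a keratin, fell from 518 ± 9.73 to 447 ± 8.37 TPM (± SD over 3 libraries). Of those expected to be low or absent, ESR1 was at 2.03 to 2.51 TPM with vehicle and 1.96 to 3.38 TPM with PDBAG1. CDH1 was at or below 0.84 TPM and PGR at or below 0.06 TPM in every library. Of 4 markers of other cell types (PTPRC, PECAM1, ADIPOQ and ALB), summed to 5.26 to 5.66 TPM in vehicle and 9.19 to 10.96 TPM in PDBAG1 libraries, 1 rose (PECAM1, an endothelial adhesion gene, from 3.94 ± 0.152 to 8.64 ± 0.680 TPM (± SD over 3 libraries)) and the other 3 stayed at or below 1.41 TPM. The part of these markers in the results was not tested.

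As background, cholesterol is built from acetyl-CoA through mevalonate, farnesyl diphosphate, squalene and lanosterol. When the endoplasmic reticulum is low in sterol, SCAP carries SREBP to the Golgi, the proteases MBTPS1 and MBTPS2 release its transcription factor domain, and the genes of synthesis and uptake are induced. INSIG proteins hold SCAP in the reticulum when sterol is plentiful. Liver X receptors (LXR), which sense oxysterols, induce the opposite set, including the exporter ABCA1 and the ubiquitin ligase MYLIP, which marks lipoprotein receptors for degradation.

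Each gene was compared between treatments on the log2(TPM + 1) scale with limma across 12582 genes, and a gene is said to rise or fall at a Benjamini-Hochberg adjusted p under 0.05. The added 1 TPM shrinks the log2 fold changes of genes near 1 TPM more than those of abundant genes. Ranks among all genes and shares past 1.5-fold therefore favour abundant genes. Of the 33 members 22 rose, 3 fell and 8 did not pass, against 21.7% of all genes tested that rose and 15.9% that fell. At the study's additional limit of a 1.5-fold change, 9 members rose and 1 fell, where the shares over all genes were 2.86% and 0.477%. In 30 of the 33 the 3 PDBAG1 libraries were all above or all below the 3 vehicle libraries, which was the case for 47.4% of all genes. The median log2 fold change was 0.48 over the members and 0.03 over all genes tested. Under quantile normalization the calls over all genes shifted from 2736 higher and 2000 lower to 2404 higher and 2742 lower, and under median-of-ratios scaling to 2557 higher and 2620 lower. More transcript per cell and more cells that express a gene cannot be told apart in these bulk libraries.

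**Figure D1:**
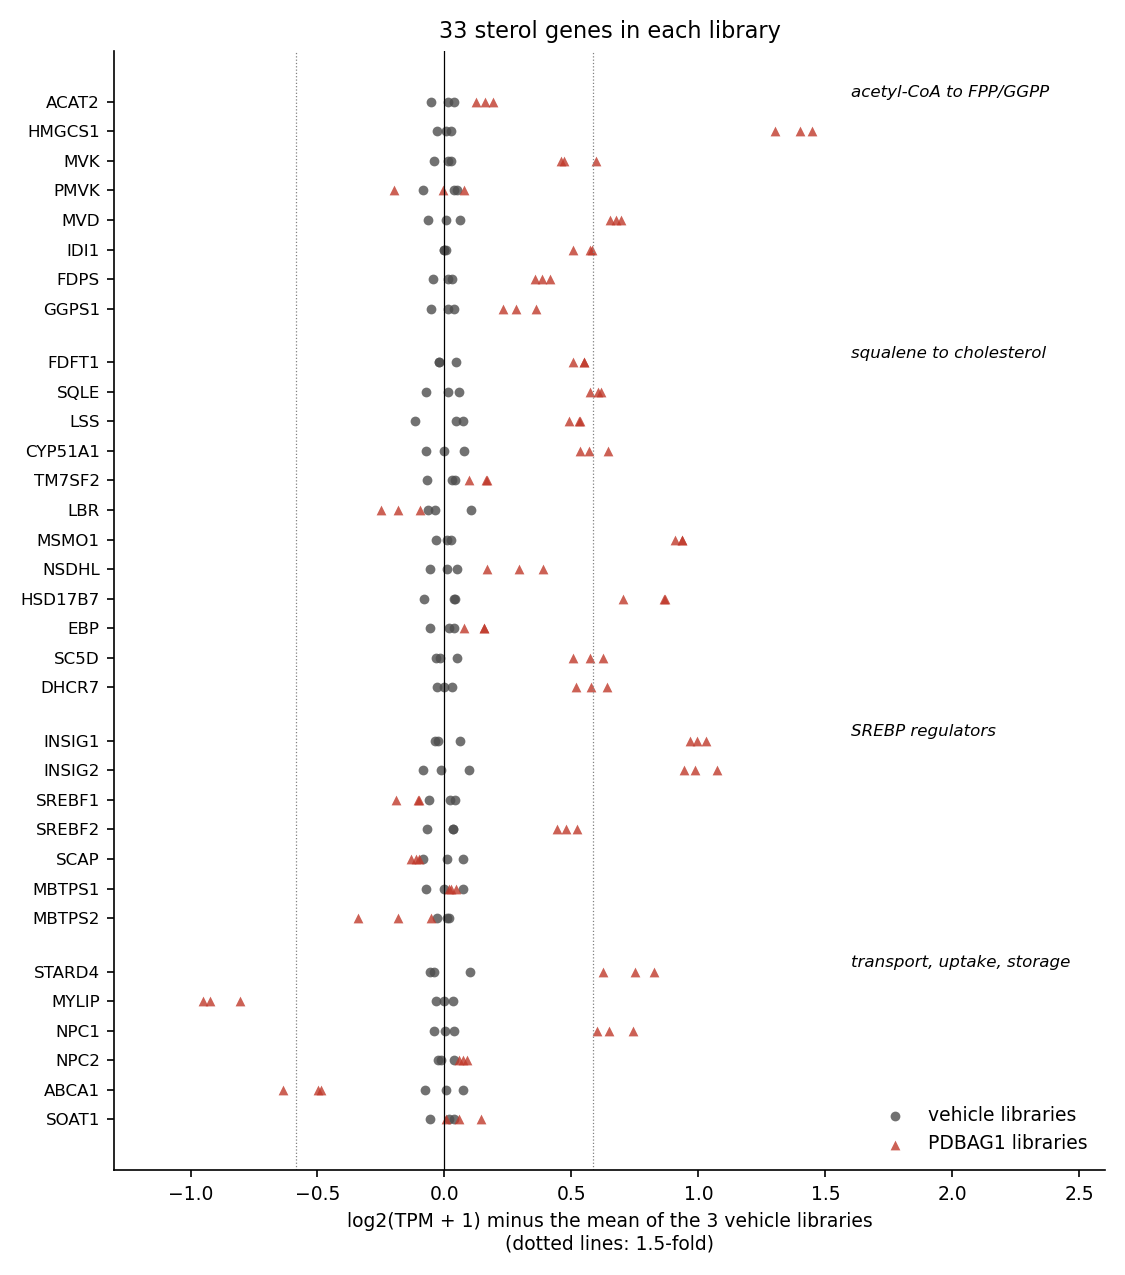
Each member's log2(TPM + 1) in each library, minus the mean of the 3 vehicle libraries (horizontal axis), with genes in pathway order from the top; circles are vehicle and triangles PDBAG1 libraries, and dotted lines mark a 1.5-fold change. Triangles lie to the right of the circles for 18 of the 20 enzymes, furthest for HMGCS1, and to the left for MYLIP and ABCA1.

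The enzyme genes were higher as a summed level, which was not tested, and most were also higher gene by gene. Summed over the 20 enzymes, the level was 1576, 1557 and 1528 TPM in the vehicle libraries and 2116, 2134 and 2138 TPM in the PDBAG1 libraries. The sum was thus 1.37-fold higher with PDBAG1, and the lowest treated library lay well above the highest vehicle library. The sums of the 8 genes from acetyl-CoA to the prenyl diphosphates and of the 12 from squalene onwards were higher by similar factors, 1.36 and 1.38. Of the 20 enzymes 17 rose, 1 fell and 2 did not pass, with a median log2 fold change of 0.53.

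HMGCS1, which makes HMG-CoA at the entry to the mevalonate pathway, changed more than any other member. It stood at 40.8, 40.3 and 39.4 TPM in the vehicle and 100.3, 111 and 108 TPM in the PDBAG1 libraries. The groups did not overlap and the mean was 2.65-fold higher, or 1.38 on the log2 scale (limma standard error (SE) 0.05, adjusted p = 4.12e-10), which ranked 22 among the rises of all 12582 genes. The gene lies on chromosome 5, 43287470 to 43313512 (GRCh38, GENCODE v44).

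The other genes up to the prenyl diphosphates had smaller log2 fold changes, from -0.04 to 0.67. ACAT2, the cytosolic thiolase that joins 2 acetyl-CoA, went from 169 ± 5.42 to 189 ± 4.22 TPM (± SD over 3 libraries), a log2 difference of 0.16 that passed the threshold. MVK, which phosphorylates mevalonate, rose from 39.1 ± 0.998 to 56.0 ± 3.05 TPM (± SD over 3 libraries). PMVK, the kinase of the next step, was the exception among these genes, at 54.4, 54.9 and 49.9 TPM in the vehicle and 52.8, 46.0 and 55.9 TPM in the PDBAG1 libraries. Its values overlapped, and the 95% interval of its log2 fold change ran from -0.19 to 0.10. MVD, which decarboxylates the product to isopentenyl diphosphate, was at 32.9, 31.7 and 30.1 TPM in the vehicle and 51.6, 50.1 and 50.9 TPM in the PDBAG1 libraries. Its 1.61-fold rise was clear of the spread in either group (limma log2 fold change 0.67, SE 0.05, adjusted p = 5.63e-07).

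IDI1, the isomerase that supplies the second C5 unit, rose from 144 ± 0.392 to 211 ± 5.89 TPM (± SD over 3 libraries). FDPS, which condenses the units to farnesyl diphosphate and was the most abundant enzyme gene of the list, rose from 292 ± 8.16 to 382 ± 7.63 TPM (± SD over 3 libraries). GGPS1 stands at a branch that leads to geranylgeranyl diphosphate rather than to cholesterol, and it also rose, from 22.9 ± 0.766 to 28.2 ± 1.35 TPM (± SD over 3 libraries). The log2 fold changes of these 3 genes were 0.55, 0.39 and 0.29.

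**Figure D2:**
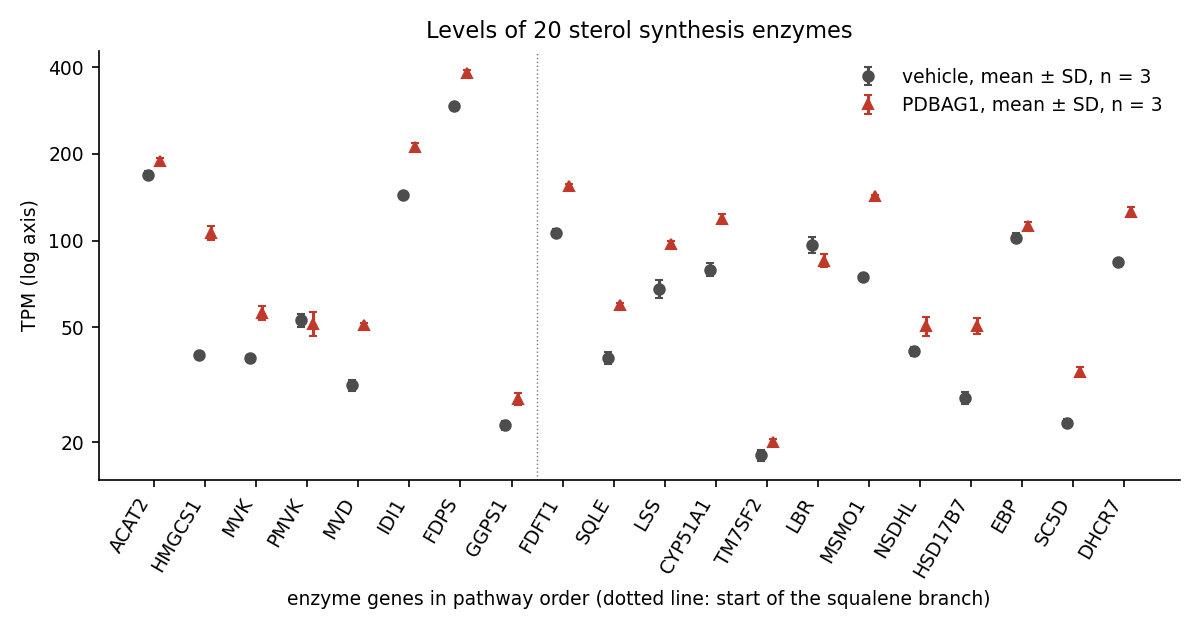
Mean TPM (log axis) of the 20 enzyme genes in pathway order with vehicle (circles) and PDBAG1 (triangles); bars are the SD over 3 libraries. Levels range from 18.0 TPM (TM7SF2) to 292 TPM (FDPS) with vehicle, and the triangles lie above the circles except for PMVK and LBR.

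The squalene branch, in which all further carbon goes to sterol, was raised at its entry. FDFT1, squalene synthase, rose from 106 ± 2.90 to 155 ± 2.53 TPM (± SD over 3 libraries). SQLE, the oxygenase that opens the way to ring closure, was at 40.9, 39.6 and 37.3 TPM in the vehicle and 58.8, 60.1 and 60.6 TPM in the PDBAG1 libraries, without overlap and just over the 1.5-fold limit (limma log2 fold change 0.60, SE 0.05, adjusted p = 1.29e-06). LSS, which folds the epoxide into lanosterol, rose from 68.0 ± 4.80 to 97.7 ± 1.64 TPM, and CYP51A1, the lanosterol demethylase, from 79.3 ± 4.12 to 119 ± 4.85 TPM (± SD over 3 libraries).

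The next step can be run by either of 2 sterol C14-reductases, and neither was called higher. TM7SF2 was at 17.1, 18.4 and 18.5 TPM in the vehicle and 20.3, 20.3 and 19.3 TPM in the PDBAG1 libraries, a log2 fold change of 0.14 that did not pass (limma adjusted p = 0.0975). LBR, which is also a receptor for lamin B in the inner nuclear membrane, was at 104, 93.9 and 92.2 TPM in the vehicle and 80.9, 85.0 and 90.1 TPM in the PDBAG1 libraries. It was the only enzyme gene that fell (limma log2 fold change -0.18, SE 0.06, adjusted p = 0.0229), and the call was lost without vehicle replicate 1 (log2 fold change -0.12), without PDBAG1 replicate 1 (-0.14) and without PDBAG1 replicate 2 (-0.17). The ratio of TM7SF2 to LBR was 0.165, 0.196 and 0.201 with vehicle and 0.251, 0.239 and 0.215 with PDBAG1, a log2 difference of 0.33 (two-sided exact permutation test, p = 0.1, adjusted p = 0.133 over 4 ratios), where 0.1 is the smallest p that 3 libraries against 3 allow.

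MSMO1, the C4-methylsterol oxidase, had the second largest rise of the enzymes. Its levels were 72.8, 75.8 and 75.0 TPM in the vehicle and 141, 144 and 144 TPM in the PDBAG1 libraries, so that the groups stood far apart and the libraries of each group within a few per cent of each other. The mean was 1.91-fold higher (limma log2 fold change 0.93, SE 0.04, adjusted p = 2.06e-09), and the gene lies on chromosome 4, 165327667 to 165343164. The enzymes that complete the C4 demethylation had smaller log2 fold changes than MSMO1, but the changes of these genes were not tested against each other. HSD17B7, the keto-reductase, was at 29.3, 26.8 and 29.1 TPM in the vehicle and 52.5, 52.7 and 46.8 TPM in the PDBAG1 libraries (limma log2 fold change 0.81, SE 0.06, adjusted p = 3.84e-07). NSDHL, the dehydrogenase that acts between them, rose less, from 41.3 ± 1.59 to 50.6 ± 3.96 TPM (± SD over 3 libraries).

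At the end of the pathway, SC5D, which introduces the C5 double bond, rose from 23.3 ± 0.735 to 35.0 ± 1.47 TPM, and DHCR7, which reduces 7-dehydrocholesterol, from 84.0 ± 1.81 to 126 ± 5.38 TPM (± SD over 3 libraries). EBP, the sterol isomerase before them, changed little, from 103 ± 3.53 to 112 ± 3.49 TPM (± SD over 3 libraries). Its log2 fold change of 0.13 passed the threshold (limma adjusted p = 0.0351), but not without vehicle replicate 1 (0.10), vehicle replicate 3 (0.14), PDBAG1 replicate 1 (0.12) or PDBAG1 replicate 3 (0.12), nor under median-of-ratios scaling (0.10), without the variance trend or under the replicate block. CYP51A1, SC5D and DHCR7 had log2 fold changes of 0.58, 0.57 and 0.58, just under the 1.5-fold limit that SQLE passed. The means of CYP51A1 and SC5D in TPM differed 1.502-fold and 1.504-fold, and with a pseudocount of 0.1 TPM both genes and ABCA1 passed that limit, so that 11 members rose and 2 fell by at least 1.5-fold.

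Of the 7 SREBP regulators, INSIG1, INSIG2 and SREBF2 rose, the other 4 did not pass, and the median log2 fold change was 0.03. INSIG1, which keeps SCAP in the endoplasmic reticulum and is itself a classic SREBP target, was at 149, 158 and 148 TPM in the vehicle and 297, 311 and 303 TPM in the PDBAG1 libraries (limma log2 fold change 1.00, SE 0.04, adjusted p = 7.47e-10). INSIG2, its less abundant relative, was at 20.9, 18.3 and 19.3 TPM in the vehicle and 38.3, 42.0 and 39.5 TPM in the PDBAG1 libraries (limma log2 fold change 1.00, SE 0.06, adjusted p = 8.12e-08). Neither gene's groups overlapped, and the pair ranked 75 and 74 among the rises of all genes tested. INSIG1 exceeded INSIG2 by a factor of 7.13, 8.66 and 7.66 in the vehicle libraries and 7.76, 7.40 and 7.67 in the PDBAG1 libraries. That ratio did not differ detectably between the treatments (log2 difference -0.03, two-sided exact permutation test, p = 0.9, adjusted p = 0.9). INSIG1 lies on chromosome 7, 155297776 to 155310235, and INSIG2 on chromosome 2, 118088452 to 118110997.

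Of the 2 SREBP genes, SREBF2 rose and SREBF1 did not pass. SREBF2, which encodes the isoform most devoted to cholesterol genes, was at 46.0, 46.1 and 42.9 TPM in the vehicle and 64.9, 61.5 and 63.0 TPM in the PDBAG1 libraries, a rise that did not reach 1.5-fold (limma log2 fold change 0.48, SE 0.05, adjusted p = 8.71e-06). SREBF1, whose product favours fatty acid genes and whose transcription LXR also drives, was at 50.1, 49.5 and 46.6 TPM in the vehicle and 42.6, 45.4 and 45.3 TPM in the PDBAG1 libraries. The groups of SREBF1 did not overlap either, but its log2 fold change of -0.13 did not pass (limma adjusted p = 0.0676). SREBF1 was the more abundant of the pair in all 3 vehicle libraries, with ratios to SREBF2 of 1.09, 1.07 and 1.09, and the less abundant in all 3 PDBAG1 libraries, with ratios of 0.656, 0.739 and 0.720. The log2 ratio was 0.62 lower with PDBAG1 (two-sided exact permutation test, p = 0.1, adjusted p = 0.133). This difference did not pass, and 0.1 is again the smallest p the design allows. Both readings come from the same library, so this comparison does not depend on scaling between libraries.

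SCAP and the proteases had small differences. SCAP averaged 31.4 ± 1.77 TPM in the vehicle libraries and 28.9 ± 0.331 TPM in the PDBAG1 libraries (± SD over 3 libraries, limma log2 difference -0.11). MBTPS1 was at 44.5 ± 2.34 and 45.4 ± 0.416 TPM (± SD over 3 libraries), with a 95% interval of the log2 fold change from -0.09 to 0.14. MBTPS2 was at 11.0 ± 0.210 and 9.56 ± 1.04 TPM (± SD over 3 libraries, limma log2 difference -0.19). None of these 3 passed the threshold, whereas SREBF1, SCAP and MBTPS2 were called lower under median-of-ratios scaling (log2 fold changes of -0.16, -0.15 and -0.22) and under quantile normalization (-0.15, -0.15 and -0.28). MBTPS2 was also called lower without PDBAG1 replicate 3 (-0.26).

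**Figure D3:**
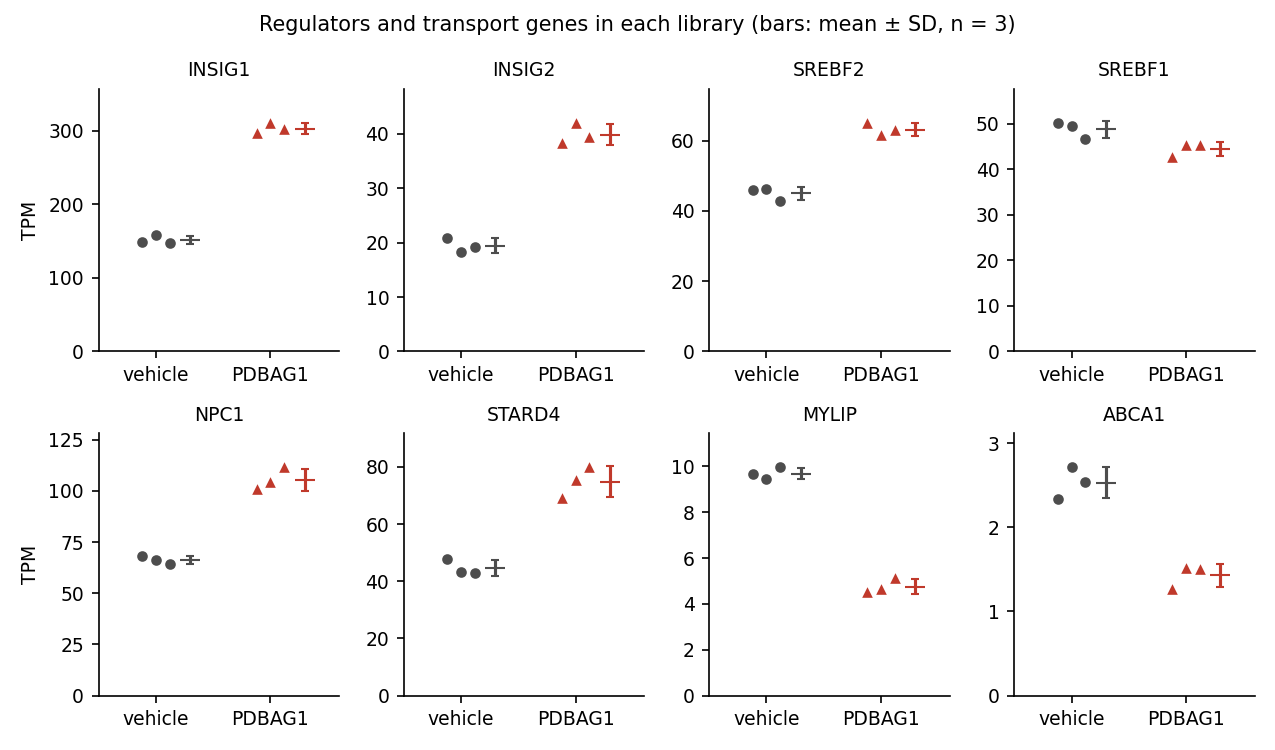
TPM in each library for 4 regulators and 4 transport genes, from 0 on a linear axis of its own in each panel; circles are vehicle and triangles PDBAG1 libraries, and bars give the mean ± SD over 3 libraries. INSIG1, INSIG2, SREBF2, NPC1 and STARD4 are higher with PDBAG1, MYLIP and ABCA1 are lower, and SREBF1 is shifted slightly down.

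Of the 6 genes of sterol transport, uptake and storage, 2 rose, 2 fell and 2 did not pass. STARD4, a soluble carrier that brings sterol to the endoplasmic reticulum, was at 47.8, 43.3 and 42.8 TPM in the vehicle and 69.1, 75.5 and 79.8 TPM in the PDBAG1 libraries (limma log2 fold change 0.73, SE 0.06, adjusted p = 9.87e-07). NPC1, the membrane protein that passes cholesterol out of lysosomes, was at 68.0, 66.2 and 64.4 TPM in the vehicle and 101, 104 and 111 TPM in the PDBAG1 libraries (limma log2 fold change 0.66, SE 0.05, adjusted p = 2.87e-07). All treated libraries of both genes exceeded all vehicle libraries.

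NPC2, the soluble partner that hands cholesterol to NPC1 and the most abundant member, was not called higher. It was at 697, 730 and 704 TPM in the vehicle and 754, 747 and 738 TPM in the PDBAG1 libraries, which did not overlap but differed by a log2 fold change of only 0.07 (limma adjusted p = 0.107). The call passed under quantile normalization, with a log2 fold change of 0.10. The ratio of NPC1 to NPC2 was 0.0975, 0.0908 and 0.0914 with vehicle and 0.134, 0.139 and 0.151 with PDBAG1, higher in every treated library (log2 difference 0.60, two-sided exact permutation test, p = 0.1, adjusted p = 0.133).

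The largest fall of the list was that of MYLIP. It was at 9.67, 9.44 and 9.95 TPM in the vehicle and 4.53, 4.63 and 5.11 TPM in the PDBAG1 libraries, so that the vehicle mean was 2.04 times the treated mean and the groups were far apart (limma log2 fold change -0.89, SE 0.08, adjusted p = 2.35e-06). MYLIP ranked 14 among the falls of all genes tested, and it lies on chromosome 6, 16129086 to 16148248. ABCA1, the pump that loads cholesterol onto apolipoproteins, was near the expression limit at 2.34, 2.71 and 2.54 TPM in the vehicle and 1.27, 1.52 and 1.5 TPM in the PDBAG1 libraries. Its vehicle mean was 1.77 times the treated mean without overlap, while the log2 fold change of -0.54 (limma SE 0.11, adjusted p = 0.00153) understates this because of the added pseudocount of 1 TPM. SOAT1, which esterifies cholesterol for storage, was at 99.5, 93.2 and 98.2 TPM in the vehicle and 97.5, 101 and 107 TPM in the PDBAG1 libraries. Its groups overlapped, and the 95% interval of the log2 fold change ran from -0.03 to 0.17.

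Promoter sequences were read to see which of 2 motifs the members share. The RefSeq table (GRCh38.p14) held a window of 300 bases, from 250 before to 50 after each start site, for 30 of the 33 members. ACAT2, FDFT1 and SQLE had no entry. Windows were searched on both strands for CCAAT, the box bound by NF-Y, a known partner of SREBP, and for TCACNCCAC, a consensus of the sterol regulatory element. The 2 motifs share no overlapping match in the windows printed here. CCAAT occurred in 20 of the 30 members with a window, and by role in 14 of 17 enzymes (82.4%), 2 of 7 regulators and 4 of 6 transport genes, beside 43.3% of the 10120 tested genes with a window. The consensus occurred in 1 member, SREBF2, and in 1.53% of the tested genes with a window. A match describes letters and not a bound site. Nor does the lack of a match to this consensus in this window show that a promoter lacks a sterol element.

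Shown here are the windows of the enzymes with the largest rises, of the INSIG pair, which had like fold changes, and of SREBF2, which holds the sterol element consensus; SREBF2 was chosen after its match was seen. HMGCS1 is at chr5:43313363-43313662 on the minus strand, MSMO1 at chr4:165327419-165327718, INSIG1 at chr7:155297628-155297927, INSIG2 at chr2:118088221-118088520 and SREBF2 at chr22:41832855-41833154, all on the plus strand after the HMGCS1 window. Each is written in its gene's own direction, 5′ to 3′, and capitals mark CCAAT, its reverse complement ATTGG and, in SREBF2, the longer match to the sterol element.
HMGCS1: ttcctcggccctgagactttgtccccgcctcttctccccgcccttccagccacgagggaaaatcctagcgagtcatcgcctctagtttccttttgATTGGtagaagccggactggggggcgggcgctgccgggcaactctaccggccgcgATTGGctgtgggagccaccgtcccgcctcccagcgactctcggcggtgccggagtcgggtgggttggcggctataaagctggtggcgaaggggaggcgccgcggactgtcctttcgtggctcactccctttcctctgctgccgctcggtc
MSMO1: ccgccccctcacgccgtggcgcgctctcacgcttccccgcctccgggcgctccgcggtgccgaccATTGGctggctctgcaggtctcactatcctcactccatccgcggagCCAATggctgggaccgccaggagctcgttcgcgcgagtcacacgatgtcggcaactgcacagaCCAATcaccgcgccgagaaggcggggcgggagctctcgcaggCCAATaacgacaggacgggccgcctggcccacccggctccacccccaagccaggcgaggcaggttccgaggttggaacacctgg
INSIG1: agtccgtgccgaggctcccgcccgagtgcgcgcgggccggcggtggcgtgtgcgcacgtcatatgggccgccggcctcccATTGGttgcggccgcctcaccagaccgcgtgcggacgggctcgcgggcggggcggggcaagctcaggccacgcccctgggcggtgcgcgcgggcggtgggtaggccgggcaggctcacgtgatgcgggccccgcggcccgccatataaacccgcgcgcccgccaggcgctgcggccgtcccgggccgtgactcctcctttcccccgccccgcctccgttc
INSIG2: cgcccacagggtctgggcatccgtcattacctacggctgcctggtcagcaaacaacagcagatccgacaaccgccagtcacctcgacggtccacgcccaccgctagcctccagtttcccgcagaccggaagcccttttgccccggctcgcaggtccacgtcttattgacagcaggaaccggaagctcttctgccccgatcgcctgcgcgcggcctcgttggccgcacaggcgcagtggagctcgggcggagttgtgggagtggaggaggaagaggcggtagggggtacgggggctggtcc
SREBF2: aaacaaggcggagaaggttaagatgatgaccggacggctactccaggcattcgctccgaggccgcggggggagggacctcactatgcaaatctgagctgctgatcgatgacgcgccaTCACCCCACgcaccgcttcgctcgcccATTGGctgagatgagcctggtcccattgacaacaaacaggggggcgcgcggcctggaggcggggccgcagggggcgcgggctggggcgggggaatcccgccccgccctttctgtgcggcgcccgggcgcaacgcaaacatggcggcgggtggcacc

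MSMO1, with its 1.91-fold rise, has 4 CCAAT matches in this window, HMGCS1 2 and INSIG1 1, whereas INSIG2 has none in either of its 2 listed windows. SREBF2 has the sterol element match at position 118 of the window and a CCAAT match at position 145. Of the other members with a window that rose at least 1.5-fold, MVD has 3 CCAAT matches, HSD17B7 and STARD4 have 2 each and NPC1 has 0. CYP51A1, which also rose, has 0. Of the 3 enzymes that did not rise, PMVK and LBR have none and TM7SF2 has 1. The box is not limited to genes that rose, since MYLIP has 2 matches and SOAT1 has 1.

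A second list of 49 genes around the pathway was read beside the members, of which 45 were tested. Of these 18 rose and 8 fell (40.0% and 17.8%, beside 21.7% and 15.9% of all genes tested). Their median log2 fold change was 0.10, so that they stood closer to all genes than the members did. Of 12 genes of intracellular sterol transport 9 rose (75.0%, beside 21.7% of all genes tested) and 3 did not pass. In that group GRAMD1B was at 11.4, 9.90 and 8.23 TPM in the vehicle and 17.8, 18.8 and 18.2 TPM in the PDBAG1 libraries (log2 fold change 0.84). GRAMD1A was at 26.9, 28.0 and 28.0 TPM in the vehicle and 46.3, 45.3 and 46.3 TPM in the PDBAG1 libraries (log2 fold change 0.71). Both encode Aster proteins, which move cholesterol from the plasma membrane to the endoplasmic reticulum, and in both every treated library exceeded every vehicle library. GRAMD1C, the remaining Aster gene, was low at 4.88 ± 0.534 and 4.37 ± 0.135 TPM (± SD over 3 libraries) and did not pass.

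Of 4 other lipoprotein receptor genes 2 rose. VLDLR was at 3.91, 3.76 and 3.76 TPM in the vehicle and 9.31, 9.38 and 9.40 TPM in the PDBAG1 libraries (limma log2 fold change 1.11, SE 0.08, adjusted p = 2.50e-07), and its product is a known substrate of the ligase that MYLIP encodes. LRP1, a receptor for remnant particles, was at 6.12, 5.36 and 5.26 TPM in the vehicle and 9.91, 11.3 and 10.7 TPM in the PDBAG1 libraries (log2 fold change 0.82). The log2 fold changes of LRP8 and SCARB1 were 0.05 and 0.06, and neither passed.

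The LXR genes themselves were at 75.4 ± 0.795 and 77.9 ± 0.593 TPM for NR1H2 and 16.9 ± 1.05 and 18.2 ± 1.80 TPM for NR1H3 (± SD over 3 libraries), and neither passed. ABCG1, an LXR-induced exporter below the expression filter and therefore not tested, was at 0.91, 0.45 and 0.81 TPM in the vehicle and 0.36, 0.18 and 0.37 TPM in the PDBAG1 libraries. LPCAT3 and SMPDL3A, known LXR targets, had log2 fold changes of -0.06 and 0.01 and did not pass. Of the 5 tested genes of LXR and export, 1 rose and 0 fell (20% and 0%, beside 21.7% and 15.9% of all genes tested). Genes of this second list that did not pass, and ABCG1, were picked out here after their values were seen.

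The isoprenoid branches, which draw on the same farnesyl diphosphate, were mixed. Of 14 genes 3 were higher and 6 lower (21.4% and 42.9%, beside 21.7% and 15.9% of all genes tested). PDSS1, which makes the side chain of ubiquinone, fell from 40.7 ± 0.306 to 27.4 ± 2.39 TPM, whereas PDSS2, the other subunit of that enzyme, rose from 11.3 ± 1.07 to 14.2 ± 1.67 TPM (± SD over 3 libraries). The log2 fold change of PDSS1 was -0.55 (limma adjusted p = 1.77e-05) and that of PDSS2 was 0.31, a call lost without vehicle replicate 2 (0.25), without PDBAG1 replicate 3 (0.22) and without the expression filter. Among 9 partners of SREBP processing and sterol-driven degradation, 2 rose and 2 fell (22.2% each, near the shares over all genes). The larger rise was that of ERG28, a scaffold of the C4 demethylation enzymes, with a log2 fold change of 0.19, and the larger fall that of ERLIN1, with -0.28. The call of ERG28 was lost without vehicle replicate 1 (0.18), vehicle replicate 2 (0.17) or PDBAG1 replicate 1 (0.14) and under both other scalings. CYP27A1, a sterol 27-hydroxylase, was the only oxysterol enzyme of 4 that could be tested and rose by 0.31 on the log2 scale.

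**Figure D4:**
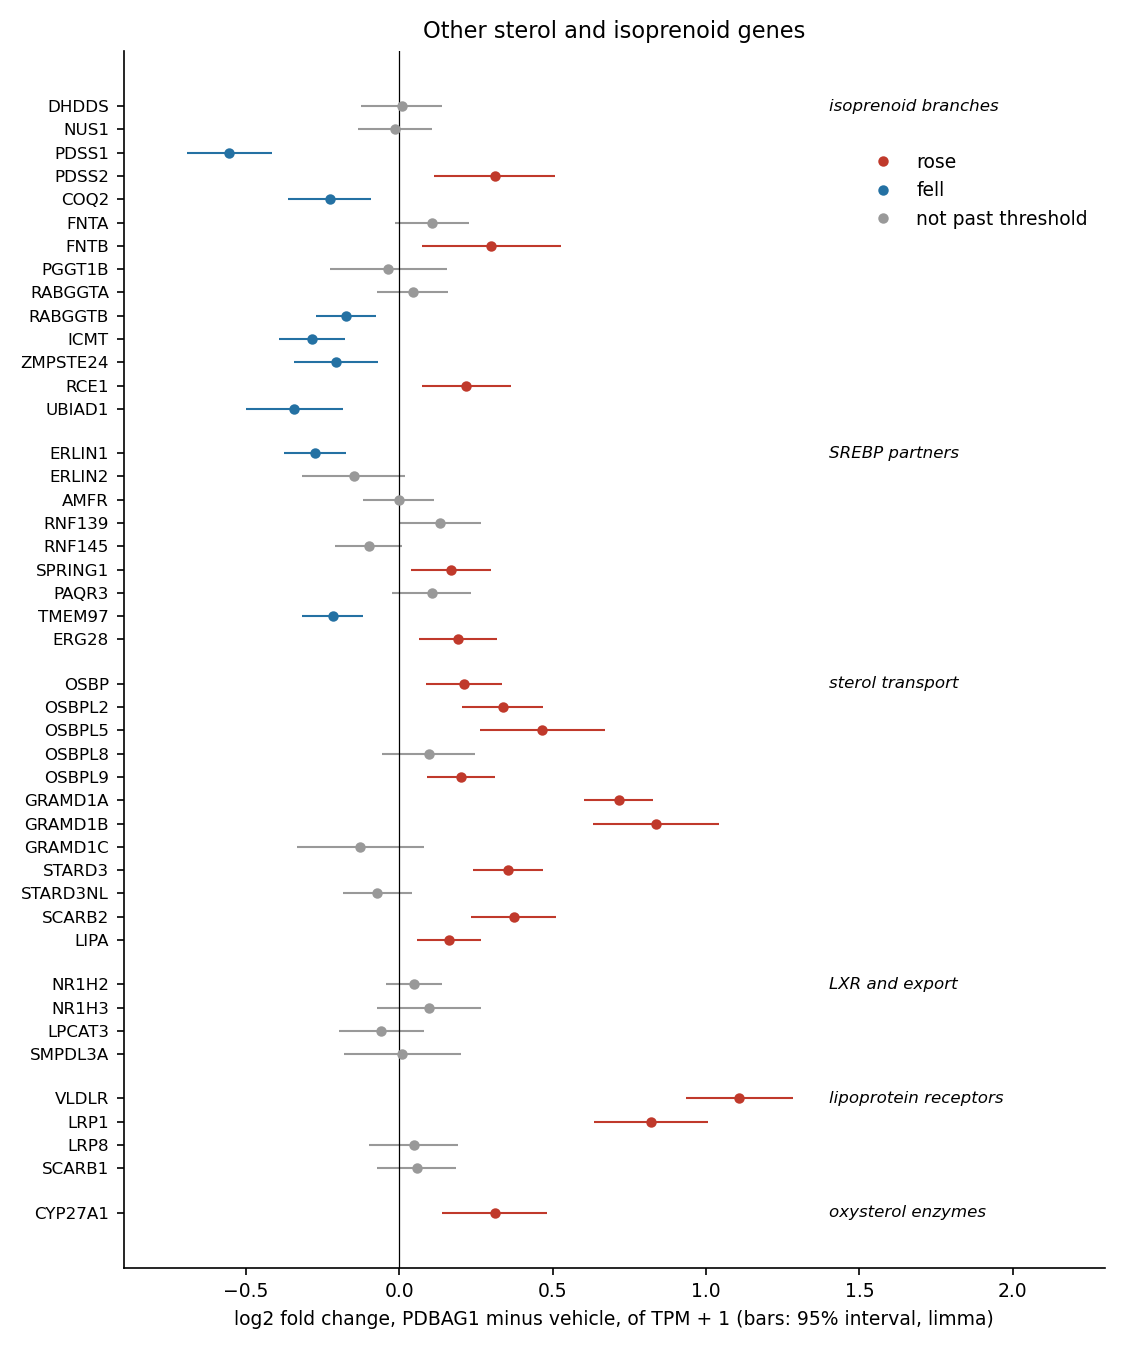
Log2 fold change of TPM + 1, PDBAG1 minus vehicle, for tested genes around the pathway, grouped by role, with 95% limma intervals over 3 libraries per group; colour gives the call at an adjusted p under 0.05. Sterol transport genes lie mostly right of 0, with 9 of 12 called higher, and the isoprenoid branches lie on both sides.

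Some members share sequence with other loci. In GENCODE v44, 4 members have pseudogenes named after them (FDPS 8, IDI1 3, CYP51A1 3 and HSD17B7 2), so that their reads could be shared with these copies. The spans of 10 members overlap another protein-coding gene. Examples on the other strand are ACAT2 with TCP1 and SOD2, and NPC1 with RMC1. On the same strand, TM7SF2 overlaps VPS51 and MBTPS2 overlaps YY2. GGPS1, CYP51A1 and EBP overlap same-strand genes that have only an Ensembl identifier. Strand cannot separate reads of same-strand overlaps, and whether the counting used strand is not given in the sources used here.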

How the data were processed

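RNA-seq of MDA-MB-231 cells was analysed in 6 libraries, 3 with vehicle and 3 with 30 µM PDBAG1 for 24 h, all in medium with 10% FBS. The authors deposited TPM per gene for each library, written to 2 decimals. The submitters' processing notes list HISAT2 2.0.4, Bowtie2 2.2.5, RSEM 1.2.12 and GRCh38.p12; the study's methods name another patch of that build, FPKM as the unit and a BGISEQ instrument, while the labels name Illumina protocols, and the values were used as the TPM the files give. TPM shares 1 total per library, so a large change in some genes moves the others.

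Testing was limited to genes that reached a TPM of 1 in 3 or more libraries (12582 of 17631) on log2(TPM + 1) with limma 3.58.1 in R 4.3.3 (2 groups, variance trend, Benjamini-Hochberg adjustment over all genes), the test planned for normalised values. Ratios within a library were compared by two-sided exact permutation tests. No pair of libraries was identical. The fit was tested on simulated data. Alternatives were 2 other scalings, 2 other filters, a pseudocount of 0.1, no variance trend, a replicate block and leaving out each library. The members and the other lists were chosen with earlier results of these data known. Values of every library are given for members past the adjusted p and 1.5-fold, for the ratio pairs and for MYLIP, ABCA1, SOAT1 and STARD4; other genes are named when past both limits or with the largest rise or fall of their group. Positions are from GENCODE v44 and promoters from RefSeq GRCh38.p14; for genes with several starts the window with most matches was used. The value of 1 gene of the second list is not reported here, though the list's totals include it.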

Additional observations from a re-analysis of the deposited data

How the results depend on the processing

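Of the members' single-gene comparisons under the alternatives, 409 kept their side of the threshold, 8 gained the call (SREBF1, SCAP, MBTPS2 and NPC2) and 12 lost it (LBR and EBP). Among the 409, the sign changed 3 times, in PMVK and MBTPS1, which did not pass under any of them. The count of members higher was 22 and became 9 with a 1.5-fold limit; the count lower was 3 and became 6 under median-of-ratios scaling, 6 under quantile normalization and 1 with the 1.5-fold limit. Without each library in turn these counts were 21 to 22 and 2 to 4, and the members past both limits, 10 as reported, numbered 9 to 12. With a pseudocount of 0.1 they numbered 13, since CYP51A1, SC5D and ABCA1 were added. Under median-of-ratios scaling the median log2 fold change was 0.45 for all members, 0.49 for the enzymes and 0.036 for transport. The median log2 fold change of the SREBP regulators, 0.03, changed sign to -0.0046 under median-of-ratios scaling and was 0.0056 under quantile normalization. Leaving out 1 library gave medians of 0.45 to 0.50 for all members, 0.53 to 0.54 for the enzymes, 0.056 to 0.083 for transport and -0.0077 (without vehicle replicate 3) to 0.066 (without vehicle replicate 1) for the regulators. The cause was not tested. Libraries with the same number did not deviate together (correlations of -0.21, 0.01 and -0.08, beside -0.14 to 0.21 for other pairs). These values cannot show whether equal numbers mark a shared culture or day, so pairing is unknown. With the replicate block 3951 in place of 4736 genes were called. Of the members 21 were then higher (EBP lost its call) and 3 lower, and of the other list 16 were higher and 8 lower. LBR also lost its call without the expression filter, and LBR and EBP without the variance trend. TPM gives no depth, so counting error is unknown, and 3 libraries per group cannot give an exact p under 0.1.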
